A study of Mus musculus with 22 samples.

Results

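The 200 autosomal regions of 1 Mb that ranked high in 5-hydroxymethylcytosine (5hmC) in cortex, olfactory bulb and cerebellum alike were described. They were selected on the measured 5hmC values themselves: within each tissue the bins were ranked by the mean of 3 libraries, with rank 1 the highest, the worst of the 3 ranks was kept for each bin, and the 200 bins with the best worst rank were taken. They came from 2413 autosomal bins above 0 in all 9 libraries, of 2641 bins in the tables. The study profiled 3 brain tissues of female C57BL/6 mice at 8 weeks of age, with no treatment and no altered gene, and the cortex was taken without the hippocampus. TET-assisted bisulfite sequencing (TAB-seq), which reads 5hmC, gave 3 libraries per tissue, and oxidative bisulfite sequencing (oxBS-seq), which reads 5-methylcytosine (5mC), gave 3 cortex, 2 olfactory bulb and 2 cerebellum libraries, with replicates from independent mice. A level is a fraction from 0 to 1 of modified cytosine in a bin. The coverage behind each bin's level is unknown here, so errors are SDs between libraries, and in bulk tissue fewer cells with a mark and less of the mark per cell cannot be told apart.

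In mammalian DNA, 5mC is placed by DNA methyltransferases and is oxidised to 5hmC by the TET dioxygenases, both mainly at CpG dinucleotides. Neurons hold more 5hmC than most other cells, and much of it lies in the bodies of transcribed genes. Many neuronal genes for adhesion at the synapse, ion channels and signalling are among the longest in the genome, so that a bin of 1 Mb can lie wholly within a single gene.

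To show the DNA over which these levels are averaged, an intronic stretch of 200 bases is printed for each of the 3 leading regions, from the gene that covers most of the region. Each was the stretch nearest to the middle of the gene's part of the region that overlapped no annotated exon and held the region's own mean number of CpGs. They are read 5′ to 3′ on the strand of the gene in GRCm38.p6, with CpGs in capitals.
Ntm intron, chr9:29481571-29481770, minus strand: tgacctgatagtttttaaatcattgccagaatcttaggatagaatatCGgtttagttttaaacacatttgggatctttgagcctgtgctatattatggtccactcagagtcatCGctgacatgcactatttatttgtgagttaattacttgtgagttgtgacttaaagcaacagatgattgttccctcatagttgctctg
Auts2 intron, chr5:132271273-132271472, minus strand: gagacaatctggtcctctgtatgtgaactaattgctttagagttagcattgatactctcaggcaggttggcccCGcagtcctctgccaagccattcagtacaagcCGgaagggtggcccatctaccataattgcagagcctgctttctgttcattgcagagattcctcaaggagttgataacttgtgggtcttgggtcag
Arid1b intron, chr17:5174429-5174628, plus strand: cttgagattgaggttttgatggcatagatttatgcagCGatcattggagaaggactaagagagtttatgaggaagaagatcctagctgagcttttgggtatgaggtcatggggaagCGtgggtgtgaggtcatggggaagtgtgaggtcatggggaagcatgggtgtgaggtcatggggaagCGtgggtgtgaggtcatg
The Ntm and Auts2 stretches hold 2 CpGs each and that of Arid1b 3. Searching for CG, which reads the same on both strands and cannot overlap itself, found at least 1 match in 77.7% of the 200-base tiles of the members and in 69.3% of the tiles of the other bins, with means of 2.05 and 1.66 CpGs per tile.

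RefSeq promoters (250 bases before a gene start and 50 after it, GRCm38.p6) are printed for those of the 10 leading regions whose main gene has an entry within the region. The Ctnnd2 entry lies at the start of the gene in GENCODE M21, whereas the Ntm and Foxn3 entries are internal starts, 550 and 114 kb downstream of it.
Ntm promoter, chr9:29413403-29413702, minus strand: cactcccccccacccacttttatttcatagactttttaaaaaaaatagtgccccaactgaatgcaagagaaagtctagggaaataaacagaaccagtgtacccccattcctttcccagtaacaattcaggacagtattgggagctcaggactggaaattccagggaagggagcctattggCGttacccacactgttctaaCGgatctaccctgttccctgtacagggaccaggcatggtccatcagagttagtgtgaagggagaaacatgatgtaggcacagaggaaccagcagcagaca
Ctnnd2 promoter, chr15:30172284-30172583, plus strand: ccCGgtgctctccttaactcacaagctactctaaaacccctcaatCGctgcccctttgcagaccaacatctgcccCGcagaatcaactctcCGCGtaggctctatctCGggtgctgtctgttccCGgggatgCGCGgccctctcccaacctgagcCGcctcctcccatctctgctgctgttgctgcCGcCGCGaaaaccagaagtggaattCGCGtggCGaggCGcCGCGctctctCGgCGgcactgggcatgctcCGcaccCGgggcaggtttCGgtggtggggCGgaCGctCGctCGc
Foxn3 promoter, chr12:99450025-99450324, minus strand: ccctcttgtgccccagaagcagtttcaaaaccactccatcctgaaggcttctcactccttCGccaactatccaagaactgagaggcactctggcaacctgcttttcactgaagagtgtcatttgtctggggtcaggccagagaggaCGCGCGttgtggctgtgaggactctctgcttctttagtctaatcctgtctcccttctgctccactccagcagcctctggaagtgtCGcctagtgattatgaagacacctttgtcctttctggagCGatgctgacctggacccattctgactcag
CpGs, in capitals, number 2 in the Ntm promoter, 28 in that of Ctnnd2 and 6 in that of Foxn3. Of the 2637 autosomal promoters within members, 97.1% held a CG and the median count was 8, beside 94.5% and 7 for the 28759 other autosomal promoters. In tiles of 200 bases, 10 or more CpGs were found in 1.02% of those in members and in 1.02% of the others, so CpG-rich sequence took a like small share of both.

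The levels that chose the members are given as a description, without a test. Mean 5hmC over the 200 members was 0.219 ± 0.0117 (SD, n = 3) for cortex, 0.214 ± 0.00507 for olfactory bulb and 0.169 ± 0.00303 for cerebellum. The other 2213 autosomal bins averaged 0.165 ± 0.00963, 0.145 ± 0.00436 and 0.0923 ± 0.00174. The ratio of members to other bins was 1.33 ± 0.00731 for cortex, 1.48 ± 0.0179 for olfactory bulb and 1.83 ± 0.0133 for cerebellum. The cerebellum thus had the lowest level of the 3 tissues in the members and the largest ratio between members and the rest. Across members the tissue mean spanned 0.202 to 0.253 for cortex, 0.189 to 0.288 for olfactory bulb and 0.138 to 0.284 for cerebellum, and the SD over members was larger in that order, at 0.0117, 0.0186 and 0.0252.

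**Figure D1:**
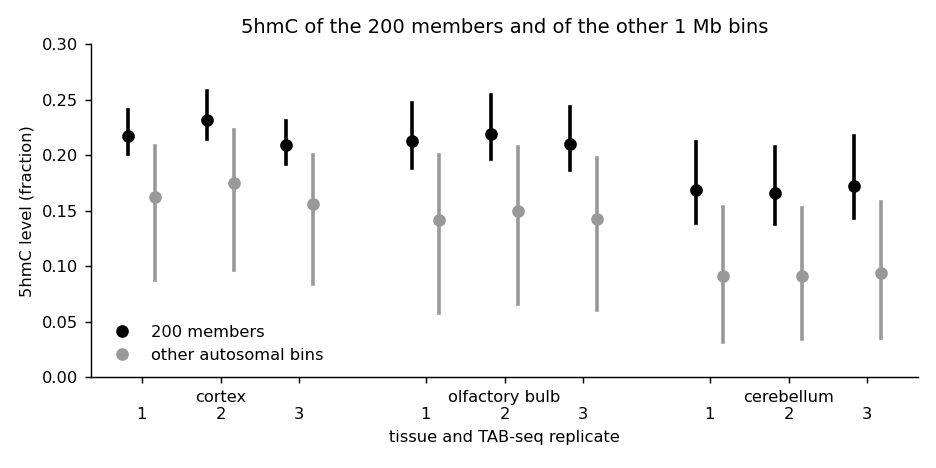
5hmC level (fraction) in each TAB-seq library, by tissue and replicate. Points are means over the 200 members (black) or the 2213 other autosomal bins (grey), and bars run from the 5th to the 95th percentile of bins; members average 0.219 for cortex, 0.214 for olfactory bulb and 0.169 for cerebellum.

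The order of the tissues in the members is given beside that in all bins. In 184 of the 200 members every cerebellum library lay below every cortex library (97.5% of all 2413 bins did so), and in 3 every cerebellum library lay above (0.414% of all bins). Against olfactory bulb, cerebellum was lower throughout in 185 members (93.1% of all bins) and higher throughout in 4 (1.37% of all bins). Olfactory bulb lay below cortex throughout in 51 members (67.2% of all bins) and above it in 18 (3.48% of all bins). In 131 members the libraries of both tissues overlapped, as they did in 707 of all 2413 bins. The rule used these same values, so nothing is read from the counts. Of the members, 55 were among the 200 highest bins of all 3 tissues, 70 of 2 tissues and 53 of 1, while 22 were in the top 200 of none. The worst rank was set by cortex in 58 members and by olfactory bulb and cerebellum in 71 each.

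The leading region, chr9:29000001-30000000, is covered to 963 kb by Ntm, which encodes neurotrimin, a cell adhesion molecule of the IgLON family. Its 5hmC was 0.253, 0.263 and 0.241 in the cortex libraries, 0.260, 0.265 and 0.258 in olfactory bulb, and 0.271, 0.269 and 0.272 in cerebellum. It ranked 1, 4 and 2 in those tissues, and here the cerebellum libraries were the highest. The Rbfox1 region, with the gene for a neuronal splicing factor, also had all cerebellum libraries above those of both other tissues, at a mean of 0.263 against 0.227 in cortex and 0.221 in olfactory bulb.

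Other leading regions had their highest level in olfactory bulb. In chr5:132000001-133000000, of which 543 kb is Auts2, a gene for a regulator of neuronal development, 5hmC was 0.249, 0.266 and 0.239 in cortex, 0.285, 0.296 and 0.282 in olfactory bulb, and 0.220, 0.211 and 0.221 in cerebellum. Its ranks were 3, 1 and 8, and the 3 tissues did not overlap in any library. The neighbouring region, chr5:131000001-132000000, holds the rest of Auts2 with Galnt17, a glycosyltransferase gene, and was the eighth, with means of 0.241, 0.260 and 0.195 for cortex, olfactory bulb and cerebellum. In chr2:135000001-136000000, shared by the phospholipase C genes Plcb1 and Plcb4, the means were 0.239, 0.269 and 0.212.

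Among the remaining leaders, chr17:5000001-6000000 holds Arid1b (a subunit of the BAF chromatin remodelling complex), the palmitoyltransferase gene Zdhhc14 and the sorting nexin gene Snx9; its means were 0.251, 0.251 and 0.224 in cortex, olfactory bulb and cerebellum. Chr15:30000001-31000000 holds 827 kb of Ctnnd2 (delta-catenin, a neuronal partner of cadherins) at 0.245, 0.240 and 0.201. Chr13:109000001-110000000 holds 953 kb of Pde4d, which encodes a cAMP phosphodiesterase, at 0.232, 0.245 and 0.225. Chr9:28000001-29000000 holds 925 kb of Opcml, another IgLON adhesion gene next to Ntm, at 0.248, 0.251 and 0.193. The tenth, chr12:99000001-100000000, has Foxn3, a forkhead transcription factor gene, with Efcab11 and Tdp1, at 0.232, 0.234 and 0.197. Over these 10 regions the SD between libraries reached 0.0171 for cortex, 0.00928 for olfactory bulb and 0.00667 for cerebellum.

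At the limit, the worst rank was 451. The last 3 regions inside it were led by the genes Adcy5, Ncoa1 and Afg1l, with cerebellum means of 0.143, 0.141 and 0.138. The 3 regions just outside it were led by Erc2, Iqgap1 and Opcml, with 0.138, 0.157 and 0.138 in cerebellum and worst ranks of 452, 452 and 453. Regions at both sides of the limit thus had like levels. When the 200 regions were chosen again from 2 libraries per tissue, 193, 195 and 192 of them were members, leaving out replicates 1, 2 and 3 in turn. These choices share 2 libraries per tissue with the rule, so the overlap is not separate support for it. In the 3 libraries left out each time, 182, 183 and 173 of the 200 again ranked within 451 in all tissues. That limit was set with all 9 libraries, the left-out ones included, so these counts are not an independent check. In the left-out libraries the newly chosen 200 averaged 0.217, 0.232 and 0.209 in cortex, against 0.163, 0.175 and 0.156 for the other bins. In olfactory bulb they averaged 0.212, 0.219 and 0.209 against 0.1417, 0.1496 and 0.1424. In cerebellum they averaged 0.169, 0.166 and 0.172 against 0.0914, 0.0912 and 0.0943.

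Members lay on all 19 autosomes. They made up 15.2% of the bins of chromosome 17 (14 of 92) and 13.1% of chromosome 9 (16 of 122), but 3.15% of chromosome 8 (4 of 127) and 4.90% of chromosome 7 (7 of 143). Along the chromosomes, 4% of members and 5.65% of other bins were in the 10 Mb from the start, and 10% and 8.4% in the last 10 Mb. The X chromosome was not part of the rule, and none of its 168 bins above 0 reached the lowest member in any tissue: its highest bins were at 0.131 for cortex, 0.146 for olfactory bulb and 0.104 for cerebellum.

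The members formed 167 separate stretches. Of these, 140 were a single bin, 21 were pairs and 6 were runs of 3. The runs were chr3:84000001-87000000 (longest single-gene models Lrba and Fbxw7, apart from Gm37240, an annotated model that spans several genes), chr5:111000001-114000000 (Ttc28, Myo18b), chr6:31000001-34000000 (Exoc4, Plxna4), chr13:43000001-46000000 (Atxn1, Jarid2), chr13:57000001-60000000 (Spock1, Ntrk2) and chr19:21000001-24000000 (Trpm3, Apba1). Their mean 5hmC spanned 0.210 to 0.228 for cortex, 0.198 to 0.227 for olfactory bulb and 0.141 to 0.182 for cerebellum. Plxna4 is a semaphorin receptor subunit, Ntrk2 the receptor of brain-derived neurotrophic factor, and Exoc4 a subunit of the exocyst.

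Gene content, which the rule did not use, is given beside that of the other bins. Protein-coding genes of GENCODE M21 covered a median of 65.1% of a member (lowest 12.5%, highest 100%), beside 39.6% of another bin. The share of bins that were members went up with coverage, from 2 of 602 bins (0.332%) with at most 20% of their length in genes to 32 of 127 (25.2%) with over 80%. A gene of at least 200 kb overlapped 165 members (82.5%) and 940 other bins (42.5%), and 1 gene covered at least 500 kb of the bin in 42 members (21%) and 149 other bins (6.73%). Gene starts had a mean of 6.59 per member and 8.81 per other bin, with medians of 6 and 5, and 20 or more starts were found in 1.5% of members and 12.6% of other bins. Among bins with over 60% coverage, 22.4% were members where the longest gene was at least 500 kb (52 of 232), as many where it was 200 to 500 kb (22.4%, 59 of 263), and 6.90% where it was under 200 kb (12 of 174). CpG density was also higher, with medians of 1042 CpGs per 100 kb in members and 783 in the others, as was the GC content, at 44.0% and 41.5%. These properties vary together between bins, and their separate parts were not tested.

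Of 20807 autosomal protein-coding genes, 1339 (6.44%) had at least 50% of their length in members. That share was 3.97% for genes under 20 kb, 7.42% for 20 to 100 kb, 13.8% for 100 to 300 kb and 18.9% for 300 kb and over. Of the 55 genes of at least 1 Mb, 11 lay with most of their length in members, among them Auts2, Rbfox1, Nrxn3, Ctnna2, Anks1b, Pde4d and Opcml.

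By function, synaptic adhesion genes had the largest share in members, 9 of 30 (30.0%), with a median gene length of 747 kb. All genes of 300 kb and over, with a shorter median of 451 kb, had 18.9%. The examples with most sequence in members included Nrxn3, Ntm, Opcml, Adgrl3 (a latrophilin) and Negr1. Weighted by length over the bins each gene crosses, 5hmC of the Nrxn3 locus was 0.195 for cortex, 0.249 for olfactory bulb and 0.145 for cerebellum, whereas the Adgrl3 bin had 0.250, 0.227 and 0.1501. Calcium and cyclic nucleotide signalling contributed 8 of 36 genes (22.2%), with Pde4d, Pde4b, Prkce (protein kinase C epsilon), Plcb1, Pde10a and Plcb4. Calcium and sodium channels contributed 4 of 22 (18.2%), the subunit genes Cacna1c, Cacna1e, Cacnb4 and Cacna1i, and presynaptic release 5 of 27 (18.5%), which were Syt1, Rims2, Cadps, Erc1 and Rims3. The neuron list gave 5 of 20 (25%): the splicing regulators Rbfox1 and Rbfox3, Ank3 (ankyrin G of the axon initial segment), Ncam1 and Map2. The signalling, channel, presynaptic release and neuron lists had median gene lengths of 281, 153, 132 and 149 kb. Their shares are to be read beside the 13.8% of all genes of 100 to 300 kb, which had a median of 147 kb. The signalling genes were longer than that class. Whether function adds to gene length was not tested.

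For the lists that follow, the counts are to be read beside all genes of like length, and no difference between lists was tested. Glutamate receptors and axon guidance had median lengths of 319 and 323 kb (18.9% of all genes of 300 kb and over). Potassium channels and postsynaptic scaffolds had 196 and 192 kb (13.8% for 100 to 300 kb). GABA receptors, chromatin regulators, methylation enzymes, oligodendrocyte genes and protocadherins had medians of 20 to 100 kb (7.42%). The others had medians under 20 kb (3.97%), and all genes gave 6.44%. Of 25 glutamate receptor genes only Grik4 (4%) had most of its length in members, at a median length of 319 kb, and none of 14 GABA receptor genes did. Potassium channels gave 2 of 29 (Kcnh1, Kcnd3), axon guidance 2 of 28 (Slit3, Plxna4), postsynaptic scaffolds 2 of 20 (Dlgap1, Dlg1), chromatin regulators 2 of 39 (Arid1b, Bptf) and the DNA methylation and oxidation enzymes 1 of 21 (Mbd5). Among markers of other cell types, members held 1 of 12 astrocyte genes (the glutamate transporter Slc1a2), 1 of 14 microglia genes (Tmem119) and 0 of 14 oligodendrocyte genes. None of 20 housekeeping genes, 329 vomeronasal receptors, 110 keratins, 64 defensins, 57 clustered protocadherins or 39 Hox genes lay in members, and 2 of 1128 olfactory receptor genes did. Zfp genes gave 15 of 385 (3.90%). Symbols starting with Rpl or Rps gave 10 of 92 (10.9%), of which Rps6ka5 is a kinase; these genes are short, and share their bins with other genes. The lists were chosen with earlier results of these data known, and a share describes where genes lie, not their own 5hmC.

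**Figure D2:**
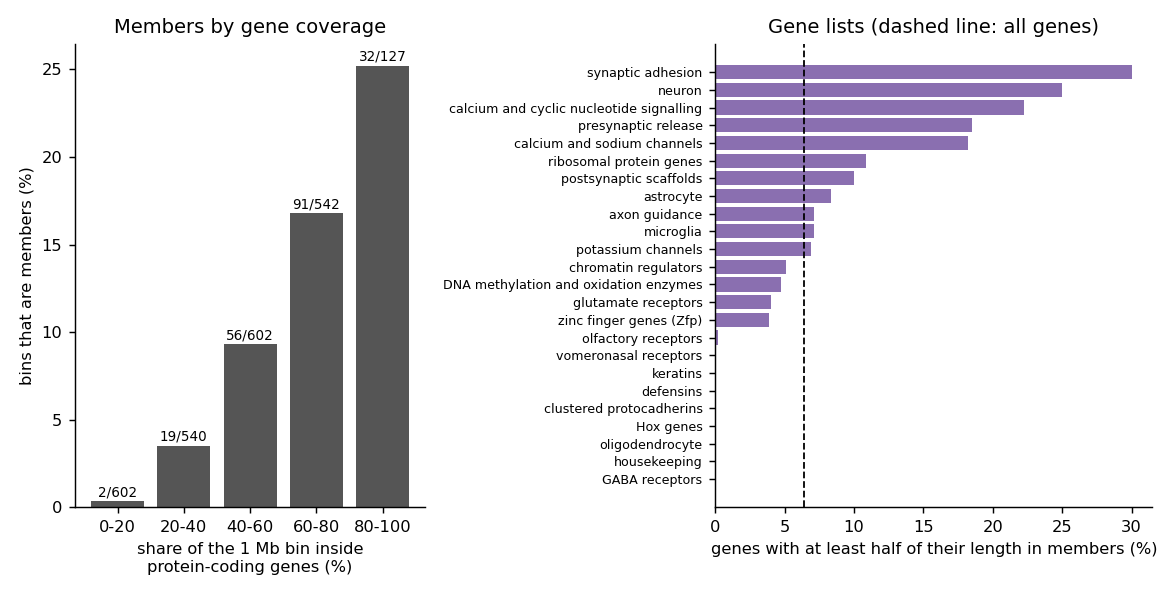
Left, share of the autosomal 1 Mb bins that are members (%), by the share of the bin inside protein-coding genes, with counts above the bars; it goes from 0.332% to 25.2%. Right, share of each gene list with at least 50% of the gene's length in members (%), with the value of all autosomal protein-coding genes, 6.44%, as a dashed line. The lists differ in gene length, which the line leaves aside.

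Next, 5mC was described at 100 kb in the oxBS-seq libraries, which the rule did not use. Both marks are fractions of the same cytosines, so 5mC is not independent of a choice of bins by 5hmC. How much of the gap to other bins goes with that choice was not tested. The members hold 2000 bins of 100 kb, of which 1999 had usable values, beside 22012 other autosomal bins. Mean 5mC of the member bins was 0.625 ± 0.0144 (SD, n = 3) in cortex, 0.649 ± 0.00615 (n = 2) in olfactory bulb and 0.687 ± 0.0125 (n = 2) in cerebellum. The other bins averaged 0.678 ± 0.0148, 0.710 ± 0.00267 and 0.737 ± 0.0114. The members were lower in each of the 7 libraries, by 0.0514 to 0.0554 for cortex, 0.0582 to 0.0632 for olfactory bulb and 0.0488 to 0.0504 for cerebellum. With the other bins weighted to the gene coverage of the members, the gap was -0.0342 ± 0.00147, -0.0423 ± 0.00241 and -0.0339 ± 0.000785 in the same order, and with weights for CpG density it was -0.0235 ± 0.00109, -0.0292 ± 0.00128 and -0.0177 ± 0.000631.

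Low 5mC was frequent but not universal in members. As the mean of the 3 tissues, 68.2% of the member bins and 35.7% of the others lay under 0.7, and 4.20% and 2.10% lay under 0.5. Ranked by their mean 5mC from the lowest, the members had a median percentile of 18.2 among the 2413 bins of 1 Mb, with 36 of them in the lowest 200 and 10 above the middle of the ranking. Within a member the 10 bins of 100 kb spanned a median of 0.205 from lowest to highest, against 0.159 in other bins.

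Position relative to genes was seen in 5mC within the members as well. The 683 member bins wholly inside genes had 0.622 ± 0.0121 for cortex, 0.644 ± 0.00559 for olfactory bulb and 0.684 ± 0.0126 for cerebellum, while the 277 without any gene had 0.688 ± 0.0163, 0.715 ± 0.00374 and 0.757 ± 0.0128. Inside genes, members were lower than other bins inside genes by 0.0459 to 0.0499 for cortex, 0.0590 to 0.0630 for olfactory bulb and 0.0628 to 0.0642 for cerebellum. Away from genes, the gaps were 0.0352 to 0.0423, 0.0425 to 0.0483 and 0.0290 to 0.0316. The 642 member bins wholly inside genes that hold no gene start had 0.623 ± 0.0119 in cortex. The 303 member bins with 2 or more gene starts, whether or not wholly inside genes, had 0.586 ± 0.0153. In other autosomal bins the same classes had 0.673 ± 0.0136 and 0.621 ± 0.0153, so this order was not particular to members. The member classes also differed in CpG density, at 898 and 1245 CpGs per 100 kb, whose part was not tested.

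**Figure D3:**
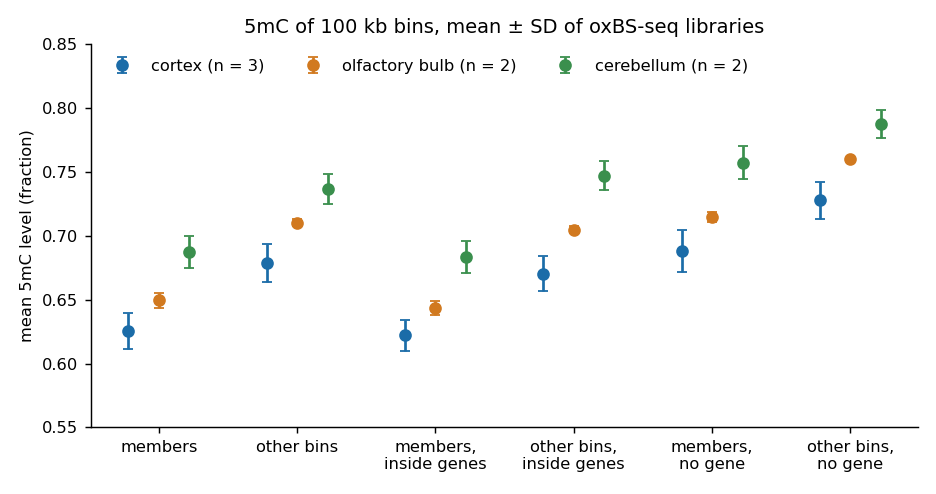
Mean 5mC level (fraction) of 100 kb bins in members and in other autosomal bins, over all bins, over those wholly inside protein-coding genes and over those without any gene. Points are means and bars SDs of the oxBS-seq libraries of each tissue, on an axis that starts at 0.55; in every tissue the members lie below the other bins of the same class.

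The lower level reached past the edges of the members. In cortex, 5mC was 0.634 ± 0.0143 in the 330 bins over 0.5 Mb inside the nearest edge, which only adjacent members have, 0.610 ± 0.0130 in bins 0.4 to 0.5 Mb inside it, 0.631 ± 0.0151 within 0.1 Mb inside it, 0.648 ± 0.0146 within 0.1 Mb outside it and 0.684 ± 0.0146 at 5 to 10 Mb. The same steps in cerebellum were 0.694 ± 0.0134, 0.670 ± 0.0123, 0.696 ± 0.0130, 0.717 ± 0.0122 and 0.742 ± 0.0112. The level was thus not lowest deepest inside the members. Gene coverage over the same steps was 57.01%, 70.6%, 61.2%, 52.1% and 37.2%, and its part in these levels was not tested.

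**Figure D4:**
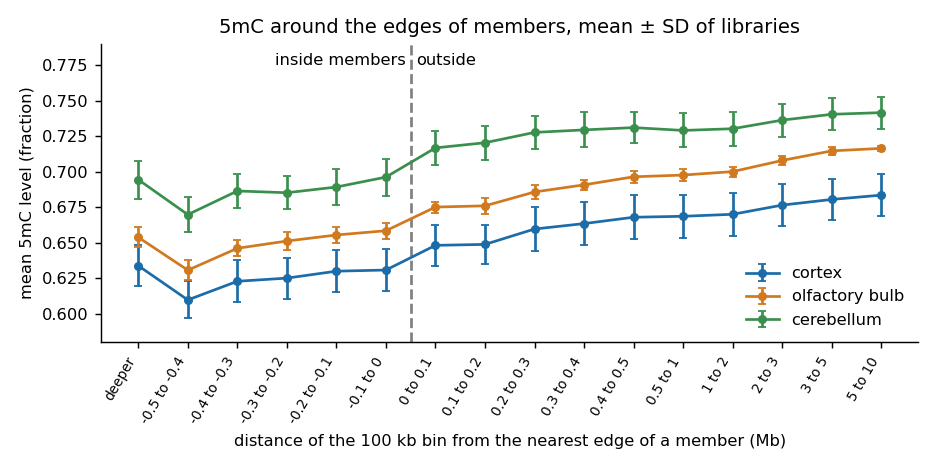
Mean 5mC level (fraction) of autosomal 100 kb bins by their distance (Mb) from the nearest edge of a member, negative inside members, with distances of uneven width as labelled. Points are means and bars SDs of the oxBS-seq libraries per tissue; cortex is at 0.634 over 0.5 Mb inside, lowest with 0.610 at 0.4 to 0.5 Mb inside, and at 0.684 at 5 to 10 Mb outside.

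Both marks can be set side by side at 1 Mb, though they come from different libraries and 5hmC chose the members. The sum of 5hmC and 5mC in members was 0.845 ± 0.0186 for cortex, 0.863 ± 0.00797 for olfactory bulb and 0.856 ± 0.0129 for cerebellum (error from both SDs), and in other bins 0.843 ± 0.0177, 0.855 ± 0.00511 and 0.829 ± 0.0115. 5hmC was 26.0%, 24.8% and 19.8% of that sum in the members and 19.5%, 16.9% and 11.1% in the others. Across the 200 members, 5hmC and 5mC correlated at a Pearson's r of -0.0516 for cortex, -0.309 for olfactory bulb and -0.448 for cerebellum, over bins that share libraries and base composition. Over the 2213 other bins it was -0.546, -0.534 and -0.572. The rule limits the range of 5hmC among members, so the r of members and of other bins are not comparable.

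The tissues were then compared in 5mC at the members. Mean 5mC of the member bins was higher in cerebellum than in cortex by 0.0615 ± 0.0191 (combined SD), with all cerebellum libraries (0.678 and 0.696) above all cortex libraries (0.609 to 0.637). The two-sided exact permutation test gave p = 0.1, the smallest value that 2 libraries against 3 allow. Olfactory bulb (0.645 and 0.654) was higher than cortex by 0.0239 ± 0.0157 (exact permutation p = 0.2), and cerebellum was higher than olfactory bulb by 0.0376 ± 0.0139 (exact permutation p = 0.3333, the smallest for 2 against 2). None of these designs can reach 0.05. The gap between members and other bins was deeper in olfactory bulb than in cortex by 0.00766 ± 0.00407 (exact permutation p = 0.1). It was shallower in cerebellum than in cortex by 0.00343 ± 0.00236 (exact permutation p = 0.2), a direction that turned on the log2 scale, and shallower than in olfactory bulb by 0.0111 ± 0.00364 (exact permutation p = 0.3333).

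Bin by bin, limma on log2(level/(1 - level)) over all 25664 bins of 100 kb, with Benjamini-Hochberg adjustment and a threshold of 0.05, called 1516 of the 1999 member bins higher in cerebellum than in cortex (71.9% of all bins were called) and 122 lower (4.44% of all bins). Against olfactory bulb, cerebellum was higher in 983 member bins (35.3% of all bins) and lower in 169 (7.69% of all bins). Olfactory bulb was higher than cortex in 668 (37.6% of all bins) and lower in 136 (2.18% of all bins). As shares of the members these were 75.8% and 6.10%, 49.2% and 8.45%, and 33.4% and 6.80%. In this fit the member share was thus below that of all bins for those higher in olfactory bulb than in cortex. It was above it in the other 5 cases, with the largest ratio for bins lower in olfactory bulb than in cortex. Some of these orders reversed with centred libraries or at 1 Mb, as given next.

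These counts depend on the general level of a library and on single libraries. The median difference over all bins was 0.43 for cerebellum minus cortex, 0.22 for olfactory bulb minus cortex and 0.19 for cerebellum minus olfactory bulb, beside 0.46, 0.18 and 0.29 for the members. With each library centred on its median, the member bins split into 615 higher and 421 lower for cerebellum minus cortex (25.7% and 24.3% of all bins), 712 and 344 for cerebellum minus olfactory bulb (22.1% and 21.3%), and 212 and 435 for olfactory bulb minus cortex (8.81% and 9.90%). Of the 1999 member bins, the share higher in olfactory bulb than in cortex was then above that of all bins. The shares lower in cerebellum than in cortex and than in olfactory bulb were then below it. In these cases centring reversed the order of members and all bins. Without olfactory bulb replicate 1 or 2, the bins higher in olfactory bulb than in cortex numbered 223 or 347, and those lower 71 or 55. Those higher in cerebellum than in olfactory bulb numbered 639 without olfactory bulb replicate 2 and 595 without cerebellum replicate 1. The shares of all bins called in those fits without 1 library are not given here. Whether the members moved more than other bins in them cannot be read from these counts. With 5mC averaged to 1 Mb before the test, 177 of the 200 members were higher in cerebellum than in cortex (82.5% of all 2581 bins) and 2 lower (3.02%). Cerebellum was higher than olfactory bulb in 119 (49.8% of all) and lower in 6 (7.36%), and olfactory bulb higher than cortex in 96 (60.8% of all) and lower in 7 (0.697%). At 1 Mb the member shares lower in cerebellum were also below those of all bins. They were 1% beside 3.02% against cortex and 3% beside 7.36% against olfactory bulb.

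At least 1 bin of 100 kb was higher in cerebellum than in cortex in all 200 members (97.6% of all 2413 autosomal bins of 1 Mb) and lower in 81, which is 40.5% of members (18.1% of all). Against olfactory bulb, 199 members held a bin higher in cerebellum (87.4% of all) and 89, or 44.5%, a lower one (27.8% of all). For olfactory bulb against cortex, 171 held a higher bin (91.3% of all) and 60, or 30%, a lower one (13.2% of all). Both directions were found in 81, 88 and 44 of the 200 members, in the same order, and in 389, 480 and 247 of all 2413 bins.

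Along the leading genes the tissues took different courses. In Ntm, mean 5mC over the 9 bins of 100 kb wholly inside the gene was 0.588 ± 0.0130 for cortex, 0.601 ± 0.0107 for olfactory bulb and 0.594 ± 0.00497 for cerebellum, values that lie within the spread of the libraries. Its single bins ran only from 0.545 to 0.619 in cortex but from 0.412 to 0.757 in cerebellum, where the lowest bins were centred 613 and 713 kb downstream of the gene start. Opcml, next to Ntm, had 0.594 ± 0.0150, 0.662 ± 0.00579 and 0.735 ± 0.0147 in cortex, olfactory bulb and cerebellum.

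**Figure D5:**
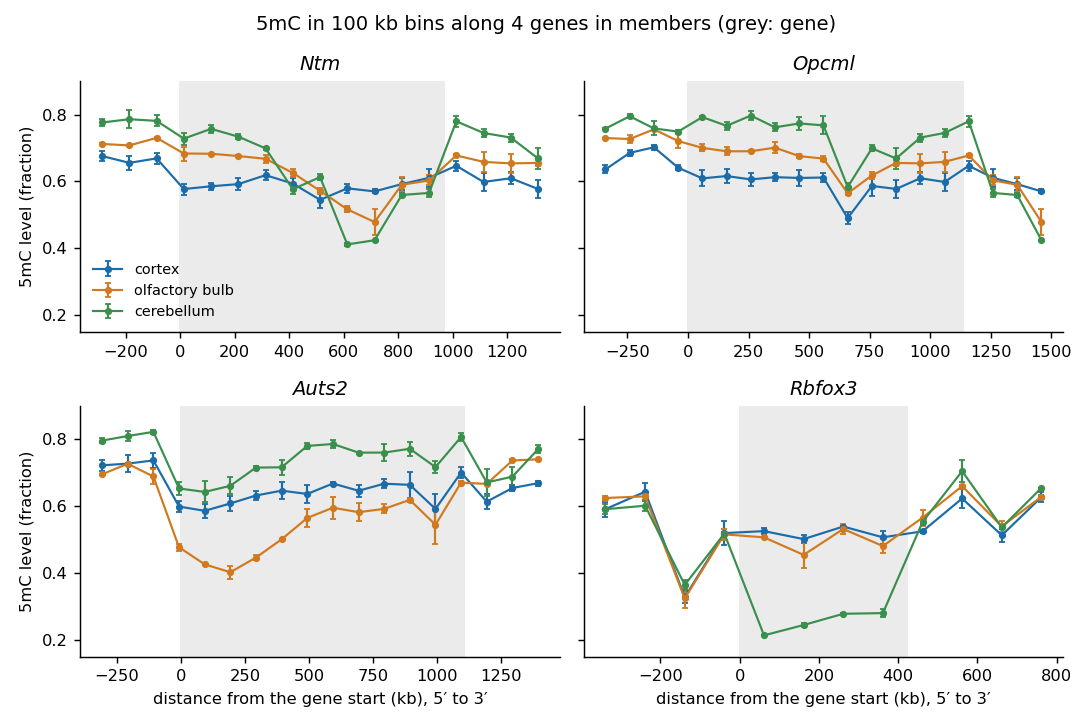
5mC level (fraction) in 100 kb bins along Ntm, Opcml, Auts2 and Rbfox3, by the distance of the bin's centre from the gene start (kb, 5′ to 3′), with the gene shaded. Points are means and bars SDs of 3 cortex, 2 olfactory bulb and 2 cerebellum libraries; olfactory bulb is lowest in the 5′ part of Auts2 (down to 0.403) and cerebellum in Rbfox3 (down to 0.214).

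The largest falls in olfactory bulb were in Auts2. In chr5:132300001-132400000, within the gene, 5mC was 0.594, 0.634 and 0.595 for cortex, 0.416 and 0.389 for olfactory bulb and 0.679 and 0.643 for cerebellum, with no overlap between tissues. Olfactory bulb differed from cortex by -1.20 ± 0.118 (SE) on the log2(level/(1 - level)) scale, with a limma adjusted p of 3.06e-20. In chr5:132200001-132300000, the bin that holds the printed Auts2 intron, the levels were 0.621, 0.645 and 0.629 for cortex, 0.452 and 0.441 for olfactory bulb and 0.718 and 0.712 for cerebellum. The differences there were -1.09 against cortex and, for cerebellum minus olfactory bulb, 1.64 (limma adjusted p = 9.73e-32). A bin shared by Prkca (protein kinase C alpha) and Cacng5, chr11:107900001-108000000, was next, at 0.676, 0.664 and 0.669 in cortex and 0.517 and 0.484 in olfactory bulb.

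The largest rises in olfactory bulb over cortex were inside Dock9 (a guanine nucleotide exchange factor for Cdc42), Kif1b (a kinesin of axonal transport) and Slc24a2 (a sodium, calcium and potassium exchanger). In the Dock9 bin, chr14:121600001-121700000, cortex had 0.549, 0.547 and 0.524, olfactory bulb 0.730 and 0.721, and cerebellum 0.572 and 0.559, a log2 difference between olfactory bulb and cortex of 1.17 (limma adjusted p = 2.95e-19). The Kif1b bin, chr4:149200001-149300000, was alike, with olfactory bulb at 0.689 and 0.703 and both other tissues between 0.501 and 0.525. In Slc24a2, chr4:87000001-87100000, olfactory bulb (0.740 and 0.729) and cerebellum (0.740 and 0.715) were both above cortex (0.553 to 0.571).

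In cerebellum the largest falls were inside Chn2, which encodes beta-chimaerin, a GTPase-activating protein for Rac, and Rbfox3, which encodes the neuronal nuclear antigen NeuN. In the Chn2 bin, chr6:54100001-54200000, cerebellum had 0.330 and 0.329, cortex 0.653, 0.667 and 0.608, and olfactory bulb 0.662 and 0.640. The log2 difference was -1.87 against cortex (limma adjusted p = 3.82e-47) and -1.93 against olfactory bulb (2.98e-42). In Rbfox3, chr11:118800001-118900000, cerebellum had 0.214 in both libraries, cortex 0.514 to 0.533 and olfactory bulb 0.506 and 0.507. The differences were -2.02 and -1.92 against cortex and olfactory bulb (limma adjusted p = 3.61e-54 and 4.85e-42). Over the 4 bins inside Rbfox3, the means were 0.518 ± 0.00241 for cortex, 0.493 ± 0.0185 for olfactory bulb and 0.254 ± 0.00507 for cerebellum, where 5hmC of the region was 0.204, 0.216 and 0.203. A bin of Ablim1, an actin-binding LIM protein gene, at chr19:57200001-57300000, fell in cerebellum to 0.369 and 0.386, against 0.684 and 0.670 in olfactory bulb and 0.572 to 0.579 in cortex.

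As a difference of fractions, the largest rise in cerebellum was in Qk, the gene for the RNA-binding protein quaking of glial cells. In chr17:10200001-10300000, 97 kb of which is Qk, 5mC was 0.650 and 0.638 in cerebellum, 0.414, 0.386 and 0.393 in cortex, and 0.295 and 0.263 in olfactory bulb. The log2 difference was 1.45 against cortex (limma adjusted p = 4.69e-30) and 2.22 against olfactory bulb (1.26e-54). On the log2 scale a second bin of Slc24a2, chr4:87100001-87200000, rose more over cortex, by 1.53 (limma adjusted p = 3.75e-33), with 0.796 and 0.788 in cerebellum against 0.552 to 0.582 in cortex. Of the other bins with the largest rises, the one in Dclk1 (doublecortin-like kinase 1), chr3:55300001-55400000, had 0.763 and 0.739 in cerebellum against 0.515 to 0.543 in cortex. A bin of Ano6, a phospholipid scramblase gene, at chr15:95800001-95900000, had 0.781 and 0.782 in cerebellum against 0.495 and 0.512 in olfactory bulb.

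The lowest 5mC in members, as the mean of the 3 tissues, was in Tcf4, a basic helix-loop-helix transcription factor gene. In chr18:69500001-69600000, wholly inside Tcf4, the levels were 0.251, 0.299 and 0.226 for cortex, 0.289 and 0.279 for olfactory bulb and 0.312 and 0.305 for cerebellum. Another Tcf4 bin, chr18:69600001-69700000, was also among the 5 lowest, with chr18:35800001-35900000 (Cxxc5, Ube2d2a), chr2:6800001-6900000 (Celf2, an RNA-binding protein gene) and chr19:46300001-46400000 (Mfsd13a, Actr1a, with 8 gene starts). In the last of these the tissues were close, with means of 0.362, 0.368 and 0.367 and no difference that passed the limma test. The highest 5mC was in chr10:83400001-83500000, with D10Wsu102e and Aldh1l2, at 0.862, 0.868 and 0.895 in cortex, olfactory bulb and cerebellum. The other 4 of the highest were bins with Gm3839, Xrn1 (an exoribonuclease gene), 4932414N04Rik with 4933409G03Rik, and 1 bin without a gene, chr3:136500001-136600000, with tissue means between 0.765 and 0.863.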

How the data were processed

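The authors mapped TAB-seq and oxBS-seq reads to mm10 with Bismark (named without a version in the submitters' processing notes) and deposited the level per bin as a fraction, 5hmC at 1 Mb and 5mC at 100 kb, with no coverage. The way sites were summarised into a bin is not given in the sources used here. Bin ends were checked against the chromosome lengths of GRCm38. Groups and replicates came from the sample labels. Bins listed at 0 in any of the 9 TAB-seq libraries were left out of the ranking, and 100 kb bins listed at 0 or 1 in any oxBS-seq library were left out of 5mC. Genes were the protein-coding genes of GENCODE M21, and a gene was counted in a list where at least 50% of its length lay in members. Sequence came from RefSeq GRCm38.p6.

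Differences in 5mC per bin were tested with limma 3.58.1 (R 4.3.3) on log2(level/(1 - level)), in 1 fit over the 3 tissues and 7 libraries, with Benjamini-Hochberg adjustment over 25664 bins of chromosomes 1 to 19 and X. The fit had 4 residual and 905 prior degrees of freedom, so that the standard error was nearly the same in all bins. The size of an adjusted p depended strongly on the fit. With each library centred on its median, the limma adjusted p of the Chn2 bin, cerebellum minus cortex, went from 3.82e-47 to 2.01e-10. That of the Dock9 bin, olfactory bulb minus cortex, went from 2.95e-19 to 7.31e-07. In simulated data for olfactory bulb against cortex (25664 bins, 200 changed), 65.5% of changes of 0.5 on the log2 scale were found and 100% of changes of 1, but 0% of changes of 0.2. Unchanged bins called numbered 7, 8 and 0 in that order. The simulated noise was normal, drawn from the variances of the fit itself and independent between bins, with no shift of whole libraries. These shares therefore hold for the model, and cannot show how often it errs in the real libraries. Means over bins were compared with two-sided exact permutation tests over libraries, on the absolute difference of means. 5hmC of the members was not tested, since it chose them.

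The text names the 10 members with the best worst rank, the 3 on each side of the limit, runs of at least 3, and of the 100 kb bins the 5 lowest and highest in 5mC and, per pair of tissues, the 3 largest rises and falls, as differences of fractions, where libraries did not overlap and the adjusted p was under 0.05. The Rbfox1 values, the Opcml values given beside Ntm, the Rbfox3 mean and the distances from edges were added after values were seen. Members and lists were chosen with earlier results of these data known. RNA-seq, haplotype blocks and single sites were not analysed here, and tissue identity was not checked against expressed markers. Of the 10 leading members 1 is not described, and some genes are not reported here by name.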

Additional observations from a re-analysis of the deposited data

How the results depend on the processing

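Centring each library on its median, which removes general shifts between libraries, moved most counts of member bins past the limma threshold, to 212 higher and 435 lower for olfactory bulb minus cortex, 615 and 421 for cerebellum minus cortex, and 344 lower for cerebellum minus olfactory bulb. With 5mC averaged to 1 Mb, 7, 2 and 6 of the 200 members (3.5%, 1% and 3%) were lower in those pairs, beside 0.697%, 3.02% and 7.36% of all bins. Leaving out 1 library at a time gave 223 to 712 bins higher and 55 to 182 lower in olfactory bulb than in cortex, and 595 to 1113 higher in cerebellum than in olfactory bulb, where the lone sample of a tissue is assumed to vary like the others. Shares of all bins called without 1 library are not given here, so members and other bins cannot be compared in those fits. Counts under the fraction scale, limited levels, autosomes alone, a variance trend and, as shares, other choices of members stayed within 1.5 times. All 252 refits of the named 100 kb bins kept their direction. Those bins were picked for large differences in these same libraries, so the refits are not separate support.

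The difference between tissues in the gap from members to other bins was the least stable value. For cerebellum minus cortex it was 0.0127 with medians over bins, 0.0108 with members chosen by their median rank, 0.00587 with weights for CpG density and 0.000233 with weights for gene coverage, and it turned to -0.00638 on the log2(level/(1 - level)) scale. It was -0.00354 for olfactory bulb minus cortex with medians, and for cerebellum minus olfactory bulb 0.0162 with medians and 0.0201 by median rank. The cause was not tested. Of the 200 members, 145 were also chosen by the median rank, 165 by the mean over 9 libraries, and 192 to 195 without 1 replicate per tissue.

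The replicate numbers are not known to pair mice across tissues: deviations from the tissue mean correlated at -0.0906 to 0.0158 between libraries with the same label number. A replicate block on the label numbers gave 572 bins higher and 190 lower for olfactory bulb minus cortex, 1452 and 145 for cerebellum minus cortex, and 1136 and 199 for cerebellum minus olfactory bulb, and same-numbered differences in mean 5mC of the members were 0.0158, 0.0534 and 0.0376 in that order. The library names carry other numbers, with correlations of -0.00129 to 0.0725, and a replicate block on those gave 842 and 145, 1594 and 121, and 962 and 163. For both blocks the share of all bins called is not given here, so these counts cannot be set beside all bins. The study states an average sequencing depth per tissue, but the depth behind each bin is unknown here, and 2 or 3 libraries per tissue limit the precision.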

Other observations

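The region chr16:11000001-12000000 with Snx29, Cpped1 and Litaf stood apart from the other members in the spread between libraries. Its 5hmC was 0.145, 0.146 and 0.218 in the cerebellum libraries, an SD of 0.0416, while the median SD over members in that tissue was 0.00352 and the next largest 0.0110. It also had the largest SD of the members in cortex, with 0.206, 0.229 and 0.191. It was the member with order 133 by worst rank, and remained among the 200 when replicate 3 was left out.

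In Ntm and Opcml, neighbours on chromosome 9, the 1 Mb 5hmC of cerebellum was 0.271 and 0.193, and mean 5mC inside the genes was 0.594 and 0.735. In cortex the same genes had 0.253 and 0.248 of 5hmC and 0.588 and 0.594 of 5mC. The marks do not cover the same DNA in Opcml. Its 5mC includes the 100 kb bins starting at 27800001 and 27900001, outside that 1 Mb region, with 0.792 and 0.766 in cerebellum.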
